A study of Rattus norvegicus with 2 samples.

Results

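G1 cyclins, their kinases, their inhibitors and their partners were followed in cultured rat cortical neurons with or without a PIWIL1 RNAi plasmid. The gene set is a list of names, which was drawn up with earlier results of these data known and sets no threshold on a value. It holds the D cyclins Ccnd1, Ccnd2 and Ccnd3, the kinases Cdk4 and Cdk6, the inhibitors Cdkn1a, Cdkn1b and Cdkn1c, the retinoblastoma gene Rb1, and Tfdp1, which encodes the E2F partner DP1. Of these 10 genes, 9 were listed among the 9894 genes of the 2 libraries, and Cdkn1c was listed in neither. Ccnd1 and Tfdp1 were among the genes that the study had named from these same libraries, so their place in the set is not independent evidence of their direction.

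The cells came from the somatosensory cortex of Sprague-Dawley rats at embryonic day 16, were dissociated and electroporated, and were grown for 48 h in Neurobasal with 10% FBS and 2% B27. The control group received a control plasmid and the RNAi group a plasmid against PIWIL1, a Piwi family protein, and each group was 1 library without a replicate. Sorting of the electroporated cells is not described in the labels or methods, so each library holds whatever share of cells took up no plasmid. No Piwi family gene (0) was listed in either library, so the knockdown itself was not checked here.

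Each transcript was counted by 21-base tags that begin at a CATG site. Copies on genes came to 1947600 in the control library (57.5% of 3386865 clean tags) and to 1865913 in the RNAi library (56.5% of 3303360). Levels are in TPM, the authors' unit for tags scaled to all clean tags of a library, which is not scaled to transcript length. Levels are compared between the libraries and not between genes. At this depth 2 copies equal 0.591 TPM in the control library and 0.605 TPM in the RNAi library, and tags with 1 copy were absent from the files. A gene that is not listed may therefore be transcribed, with each of its tags below 2 copies. Ratios are RNAi over control on the log2 scale with exact 95% intervals, which cover counting error only. A gene was called when Fisher's exact test, which compares the 2 libraries and not the conditions, gave a Benjamini-Hochberg FDR of 0.05 or less over all 9894 genes and the log2 ratio was at least 0.58 in size. In RNA from a mixed culture, fewer cells of a type and less RNA per cell cannot be told apart.

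The D cyclins pair with CDK4 or CDK6 in G1, and these kinases phosphorylate the retinoblastoma protein. Phosphorylation frees dimers of an E2F and a DP protein, which switch on genes for S phase, and the Cip/Kip proteins encoded by Cdkn1a, Cdkn1b and Cdkn1c bind cyclin-kinase complexes and can hold a cell in G1. In the embryonic cortex the D cyclins are known from dividing progenitors, and Cip/Kip inhibitors accumulate as neurons leave the cycle.

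With all tags, Ccnd1 and Tfdp1 were called higher in the RNAi library, no member was called lower, and Rb1 was lower without passing the FDR. The 2 calls among 9 listed members stand beside a background of 2.96% of all genes called higher and 5.97% called lower. The median log2 ratio was 0.02 over the members and -0.10 over all genes. Without tags that end in 8 or more A, no member was called in either direction, against a background of 2.12% higher and 5.68% lower. With edgeR's exact test at an assumed biological coefficient of variation of 0.1, Ccnd1 was no longer called (FDR 0.073) and Tfdp1 was (FDR 0.0112), and at 0.2 neither was called. The plot of levels in the libraries shows the 9 genes side by side.

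**Figure D1:**
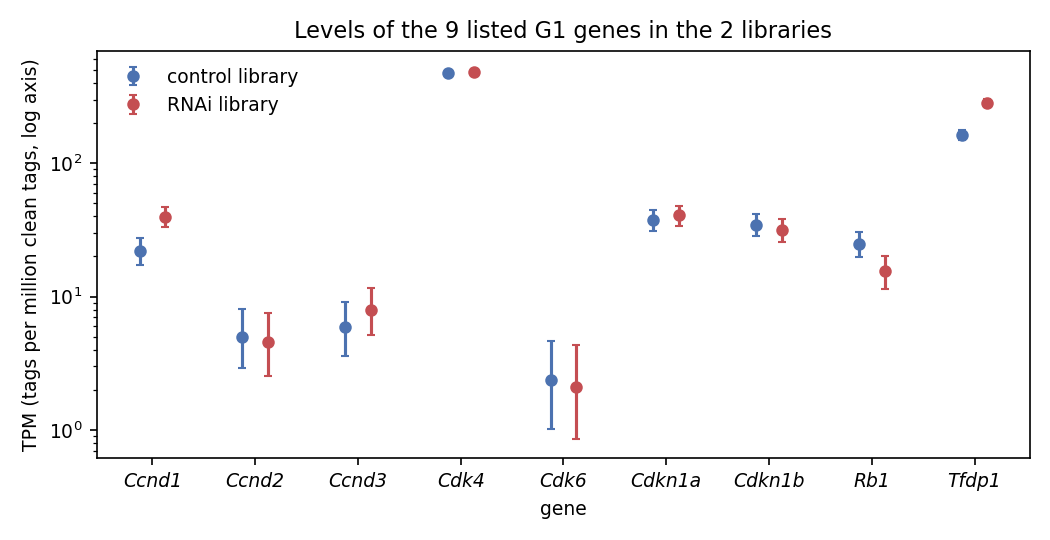
Level of each listed G1 gene (TPM, scaled to all clean tags, log axis) in the control library (blue) and the RNAi library (red), with exact 95% intervals for counting error. The intervals of the libraries separate for Ccnd1 (21.8 and 39.7 TPM) and Tfdp1 (162 and 282 TPM), and overlap for the other 7 genes, including Rb1.

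Ccnd1, which encodes cyclin D1 and is listed under NM_171992, had 74 copies (21.8 TPM) in the control library and 131 copies (39.7 TPM) in the RNAi library. The RNAi level was 1.82 times the control level, a log2 ratio of 0.86 (95% interval 0.44 to 1.29), and Fisher's exact test gave an FDR of 0.00027. The copies lay on 11 tags at 11 CATG sites, counted from site 1, the site nearest the 3′ end, and 7 of the tags were present in both libraries. The tags of the first 3 sites and of site 11 are shown because they hold most of the copies. Capitals mark the run of A at the end of the site 1 tag and the cut site in the others:
Ccnd1 site 1: catggtccaggAAAAAAAAAA
Ccnd1 site 2: CATGtgaccagcatggtccag
Ccnd1 site 3: CATGgcgcttcccagcacaga
Ccnd1 site 11: CATGttcaagttttaatttcc

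The site 1 tag ends in 10 A and had 22 control copies and 84 RNAi copies, a log2 ratio of 1.97 (1.28 to 2.72). It was the tag that set the gene apart, since its share of the gene's copies was 29.7% (19.7 to 41.5) in the control library and 64.1% (55.3 to 72.3) in the RNAi library. The site 2 tag had 29 control copies and 18 RNAi copies, a log2 ratio of -0.65 (-1.59 to 0.25). Site 3 had 8 and 9 copies and site 11 had 5 and 8, and the other 7 tags had at most 4 copies in a library. Together the tags other than site 1 gave 52 control copies and 47 RNAi copies, a log2 ratio of -0.11 (-0.71 to 0.49, FDR 0.961, Fisher's exact test). The site 1 ratio exceeded that of the other tags by 2.08 (1.14 to 3.04, two-sided Fisher's exact test, p = 5.28e-06 adjusted over the 2 members with such tags).

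These tags lie next to each other on the transcript. The last 10 bases of the site 2 tag are the first 10 of the site 1 tag, in capitals here, and the sites are 11 bases apart:
Ccnd1 site 2: catgtgaccagCATGGTCCAG
Ccnd1 site 1: CATGGTCCAGgaaaaaaaaaa
Neighbouring sites of 1 transcript thus had ratios of opposite sign, with intervals that do not overlap.

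Ccnd2, which encodes cyclin D2 (NM_022267), had 17 control copies (5.02 TPM) and 15 RNAi copies (4.54 TPM). The log2 ratio was -0.14 (-1.25 to 0.95, Fisher's exact test, FDR 0.969), and at this depth the interval held a fall of more than 2-fold. Of its 8 tags, the site 1 tag alone was found in both libraries, with 8 and 7 copies:
Ccnd2 site 1: CATGagtagtttgcaaagcat

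Ccnd3, which encodes cyclin D3 (NM_012766), had 20 control copies (5.91 TPM) and 26 RNAi copies (7.87 TPM), a log2 ratio of 0.41 (-0.48 to 1.33, Fisher's exact test, FDR 0.643). Its leading tags went opposite ways, with 3 and 9 copies at site 1 and 9 and 4 copies at site 3, and each interval included no change:
Ccnd3 site 1: CATGgacacaggtctttcctc
Ccnd3 site 3: CATGgccagtcagttcctctt

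The change of Ccnd1 was not shown to differ from that of the other D cyclins. The log2 difference between the ratios of Ccnd1 and Ccnd2 was 1.005 (-0.18 to 2.19), with p = 0.396 by Fisher's exact test adjusted over the 5 pairs of related members that could be tested. Between Ccnd1 and Ccnd3 it was 0.45 (-0.58 to 1.45, exact test, adjusted p = 0.614), and between Ccnd3 and Ccnd2 0.56 (-0.89 to 2.01, exact test, adjusted p = 0.614). Without tags ending in 8 or more A, the difference between Ccnd1 and Ccnd2 was 0.03 and that between Ccnd1 and Ccnd3 was -0.52.

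Cdk4 (NM_053593), the kinase that binds D cyclins, had 1607 control copies (474 TPM) and 1590 RNAi copies (481 TPM), the most copies of any member. Its log2 ratio of 0.02 (-0.08 to 0.12, Fisher's exact test, FDR 0.630) was bounded more closely than that of any other member. The site 1 tag held 1520 and 1530 copies, or 94.6% and 96.2% of the gene's copies, and the site 2 tag held 69 and 51:
Cdk4 site 1: CATGcaaactgcattgttcac
Cdk4 site 2: CATGgtgagggtgggggtgag
The other 11 tags of Cdk4 each differed by 1 base from the leading tag of their site. They summed to 18 control copies and 9 RNAi copies, and none had more than 3 copies in a library.

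Cdk6 (NM_001191861), the other G1 kinase, was listed with 1 tag that had 8 control copies (2.36 TPM) and 7 RNAi copies (2.12 TPM):
Cdk6 site 1: CATGttgatcaagacttgacc
Its log2 ratio was -0.16 (-1.85 to 1.50, Fisher's exact test, FDR 1), an interval that holds changes of more than 2-fold in either direction. The ratios of Cdk4 and Cdk6 differed by 0.18 (-1.48 to 1.88, exact test, adjusted p = 1).

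Cdkn1a (NM_080782) encodes p21, an inhibitor whose gene is a known p53 target. It had 127 control copies (37.5 TPM) and 134 RNAi copies (40.6 TPM), a log2 ratio of 0.11 (-0.25 to 0.48, Fisher's exact test, FDR 0.715). Most copies lay at site 1, with 95 in the control library and 115 in the RNAi library, while sites 2, 3 and 4 had 14 and 10, 13 and 7, and 5 and 2 copies:
Cdkn1a site 1: CATGtattttggtcccctccc

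Cdkn1b (NM_031762) encodes p27, the inhibitor that accumulates in neurons leaving the cycle. Its 117 control copies (34.5 TPM) and 104 RNAi copies (31.5 TPM) gave a log2 ratio of -0.13 (-0.53 to 0.26, Fisher's exact test, FDR 0.797). The leading tags are shown because their ratios pointed different ways beneath this sum:
Cdkn1b site 1: CATGataaggaattctgaatt
Cdkn1b site 2: CATGggggggaggtgaagaac
Cdkn1b site 4: CATGaagaactaacccgggac
The site 2 tag had 64 control copies and 35 RNAi copies, a log2 ratio of -0.83 (-1.47 to -0.22). Site 1 had 42 and 52 copies (0.34, -0.27 to 0.97) and site 4 had 9 and 15 (0.77, -0.51 to 2.15). The ratios of Cdkn1a and Cdkn1b differed by 0.25 (-0.29 to 0.79, exact test, adjusted p = 0.614). Cdkn1c, which encodes p57, gave no value, so the 2 pairs with it were not tested.

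Rb1 (NM_017045), the gene of the retinoblastoma protein, had 84 control copies (24.8 TPM) and 51 RNAi copies (15.4 TPM). The RNAi level was 0.622 times the control level, a log2 ratio of -0.68 (-1.22 to -0.16), and Fisher's exact test gave an FDR of 0.0563, just above the threshold. Rb1 was called lower with all clean tags as totals, with a minimum of 10 copies, or without site 1. It was not called with TMM or DESeq2 factors (Fisher's exact test, FDR 0.115 and 0.0979). Nor was it called at an assumed coefficient of variation of 0.1 (edgeR's exact test, FDR 0.392) or in the remaining alternatives. It was the 1 member past the fold threshold in the downward direction without regard to the FDR, where 22.5% of all genes stood, and Ccnd1 and Tfdp1 were the 2 past it upward, where 12.9% stood. The 4 tags of Rb1 are shown from site 1 to site 4:
Rb1 site 1: CATGgccatcacacaggttag
Rb1 site 2: CATGtcttccagggtcttttg
Rb1 site 3: CATGtagtacttgaaaatcaa
Rb1 site 4: CATGtgtgatgtttgctcttg
Site 1 had 17 control copies and 20 RNAi copies, a log2 ratio of 0.27 (-0.74 to 1.29). Site 2 had 39 and 21 copies (-0.86, -1.70 to -0.06), and site 4 had 20 and 4 copies (-2.29, -4.29 to -0.71). Site 3 had 8 and 6. The lower level of Rb1 thus lay on the tags of sites 2 and 4, which both end in TG. Over the tags of other genes that end in TG and have at least 20 copies, the median log2 ratio was -0.67 (quartiles -1.29 and -0.02, 864 tags), against -0.08 over all 16003 such tags.

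Tfdp1 (NM_001025718) had 548 control copies (162 TPM) and 931 RNAi copies (282 TPM). The RNAi level was 1.74 times the control level, a log2 ratio of 0.80 (0.65 to 0.96, FDR 3.26e-25, Fisher's exact test). The leading tags of the gene are shown because they separate by how they end, with the run of A in capitals at site 1 and the cut site in capitals elsewhere:
Tfdp1 site 1, most copied: catgggcattttAAAAAAAAA
Tfdp1 site 1, with 1 substitution: catgggcattttaaacAAAAA
Tfdp1 site 2: CATGactgtttttccttaaat
Tfdp1 site 3: CATGcagagtccagagaacaa
Tfdp1 site 4: CATGgcctgtgggctggagtc

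The most copied tag ends in 9 A and had 297 control copies and 594 RNAi copies, a log2 ratio of 1.04 (0.83 to 1.24). Its share of the gene was 54.2% (49.9 to 58.4) in the control library and 63.8% (60.6 to 66.9) in the RNAi library. The next tag differs from it by A16C, where the base of the most copied tag comes first and position 1 is the 5′ end of the tag, and so ends in 5 A. It had 157 control copies and 229 RNAi copies, a log2 ratio of 0.58 (0.28 to 0.88). This is more than the tags with 1 difference reached in Cdk4, where none had over 3 copies in a library, and which of these tags the reference transcript carries was not analysed here. Site 2 had 58 and 64 copies (0.18, -0.36 to 0.72), site 4 had 22 and 25, and site 3 had 10 and 12.

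Leaving out the tag that ends in 9 A left Tfdp1 with 251 control copies and 337 RNAi copies, a log2 ratio of 0.46 (0.22 to 0.70). It passed Fisher's exact test (FDR 0.000333) and not the fold. Leaving out tags that end in 5 or more A, a step added after seeing the data, left 94 and 106 copies, a log2 ratio of 0.21 (-0.21 to 0.63, Fisher's exact test, FDR 0.468). With that step no member was called, against 1.98% of all genes called higher and 5.60% called lower. The tag with 9 A exceeded the other tags of the gene by 0.57 (0.26 to 0.89, two-sided Fisher's exact test, adjusted p = 0.000284). With 5 or more A the difference was 0.69 (0.24 to 1.14, exact test, adjusted p = 0.0021).

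**Figure D2:**
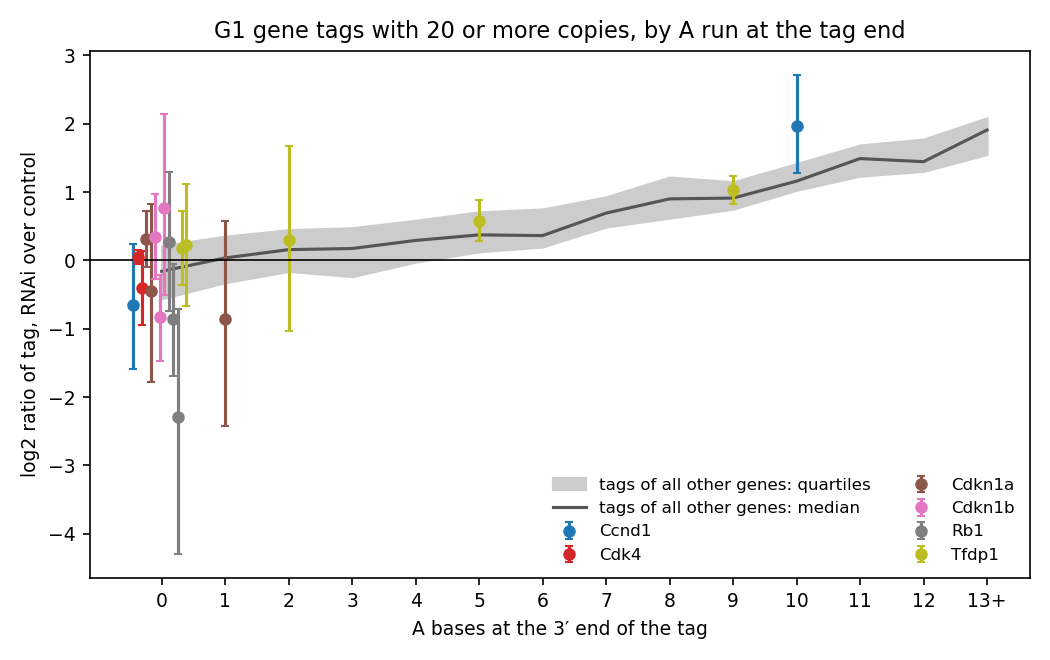
Log2 ratio (RNAi over control) of each member tag with at least 20 copies in the libraries together, by the number of A bases at its 3′ end, with exact 95% intervals; points at 0 are spread sideways. The line and band give the median and quartiles of the tags of all other genes, which are higher for longer runs, from -0.16 with no A to 1.16 with 10; Tfdp1 lies within the band at 5 and 9 A, and Ccnd1 above it at 10 A.

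A run of A at the tag end moved with the ratio across the other genes as well. Among tags of other genes with at least 20 copies, those ending in 9 A had a median log2 ratio of 0.91 (quartiles 0.75 and 1.15), and 30 of 32 were higher in the RNAi library. Those ending in 10 A had a median of 1.16 (1.03 and 1.42), with 35 of 36 higher, and for those ending in 5 A the median was 0.37 (0.13 and 0.71). The Tfdp1 tags, at 1.04 with 9 A and 0.58 with 5 A, lay within these quartiles. The Ccnd1 tag, at 1.97 with 10 A, lay above the upper quartile of its class, though the lower end of its interval (1.28) did not. Tags ending in 8 or more A belonged to 171 genes, or 1.73% of all genes, among them these 2 members. They summed to 21048 copies in the control library and 50841 in the RNAi library, while all other tags summed to 1926552 and 1815072. Of the tags ending in 8 or more A, 94.2% lay at site 1, against 23.2% of other tags. The run of A and the position of the tag thus largely go together across genes.

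When the median ratio of each class of tag end was taken out, the log2 ratio was 0.23 for Ccnd1 (Fisher's exact test, FDR 0.515), 0.01 for Tfdp1 (FDR 0.790) and -0.35 for Rb1 (FDR 0.531). After this correction no member was called, while 1.81% of all genes were called higher and 3.80% lower. The corrected ratios of the other 6 members lay between -0.16 (Cdk6) and 0.36 (Ccnd3). What makes the ratio move with the tag end was not tested.

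**Figure D3:**
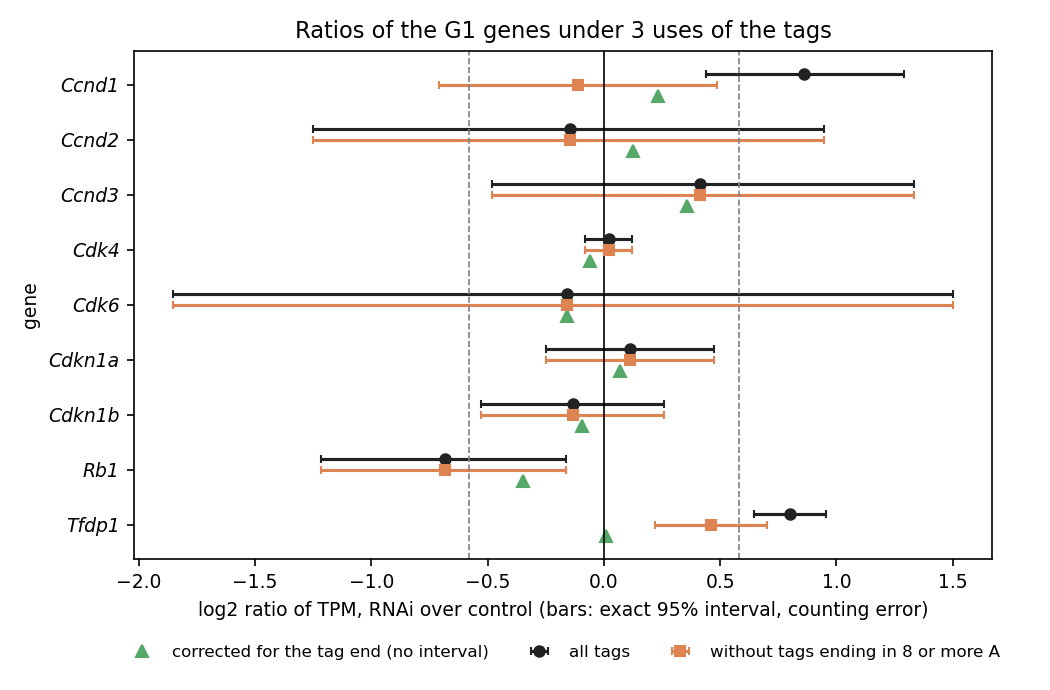
Log2 ratio (RNAi over control) of each listed G1 gene with all tags (black circles), without tags ending in 8 or more A (orange squares) and corrected for the tag end (green triangles, which carry no interval); bars are exact 95% intervals and dashed lines mark the fold threshold of 0.58. Ccnd1 moves from 0.86 to -0.11 and 0.23, and Tfdp1 from 0.80 to 0.46 and 0.01, while Cdk4 stays between -0.061 and 0.02.

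The position of a tag on the transcript gave a further comparison within genes, added after seeing the data. In 6 of the 6 members with at least 20 copies both at site 1 and at all other sites together, the log2 ratio was higher at site 1, by a median of 0.93. The same held for 56.2% of the other genes with that many copies and with copies in each library at both (2478 of 4408). Their median difference was 0.10 (quartiles -0.36 and 0.53). For Ccnd1 and Tfdp1 the site 1 tags are those with the run of A, except for 2 RNAi copies of Tfdp1. The differences were 2.08 and 0.72 (Fisher's exact test, p = 2.11e-05 and 0.00605 adjusted over 8 members). For Ccnd1 the copies are those of the earlier test of the run of A. For Tfdp1 they are nearly those of its test with 5 or more A. These genes thus give no separate evidence on position within the 6 of 6. For Cdkn1a, Cdkn1b and Rb1, which have no tags ending in 5 or more A, the differences were 1.03 (0.06 to 2.02), 0.84 (0.01 to 1.67) and 1.35 (0.12 to 2.57), with adjusted p = 0.0579, 0.0657 and 0.0579 by the exact test. For Cdk4 the difference was 0.42 (-0.12 to 0.97, exact test, adjusted p = 0.160). Outside site 1, Cdkn1a had 32 control copies and 19 RNAi copies (-0.72), Cdkn1b 75 and 52 (-0.49) and Rb1 67 and 31 (-1.08). The tag ends of these genes also differ between sites, so this comparison cannot tell position from tag end. The Rb1 tag of site 1 ends in AG (class median 0.11), and most copies elsewhere lie on TG tags (-0.67). The Cdkn1a tag of site 1 ends in CC (0.04), and the others end in AT (-0.39), GA (-0.10) or GT (-0.67). Cdkn1b goes the other way, from TT (-0.21) at site 1 to AC (-0.03).

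**Figure D4:**
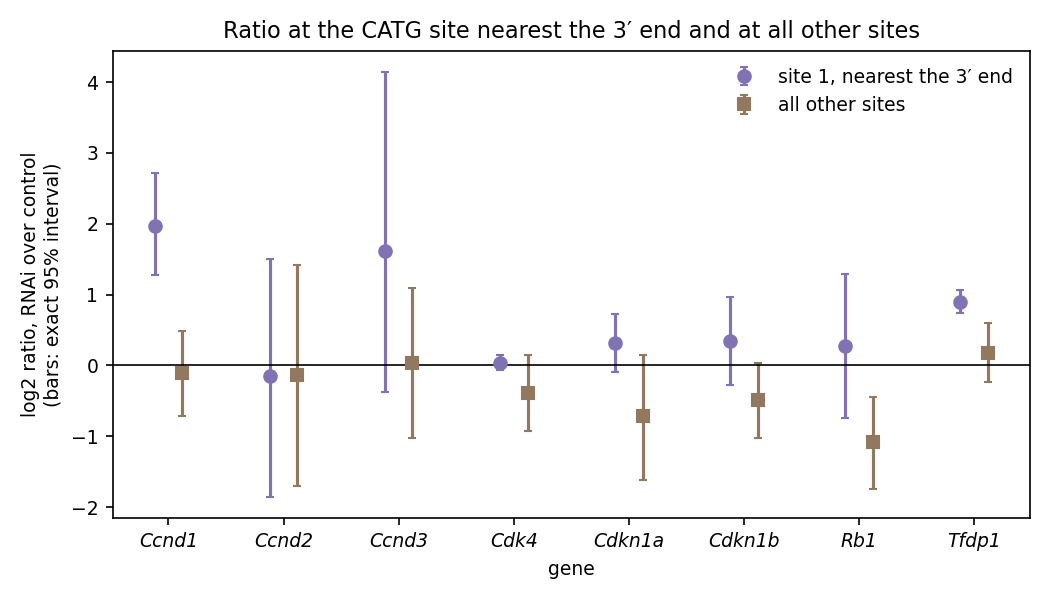
Log2 ratio (RNAi over control) of the 8 members with tags at several CATG sites, for site 1, the site nearest the 3′ end (purple circles), and for all other sites together (brown squares), with exact 95% intervals. Site 1 is above the other sites in every member but Ccnd2, with the widest gap for Ccnd1 (1.97 against -0.11).

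The other genes of the G1/S pathway were taken from a list of 40 that includes E-type cyclins, CDK2, INK4 inhibitors, E2Fs, pocket proteins and their partners. Of these, 30 were listed, none was called higher and 2 were called lower, where 2.96% and 5.97% of all genes were called. The median log2 ratio was -0.12, against -0.10 over all genes, so neither the count nor the median set this list apart. Ccnh, the cyclin of the CDK-activating kinase, fell from 313 copies to 175 (-0.80, Fisher's exact test, FDR 1.96e-07), and the study had named it from these libraries too. Lin37, a subunit of the DREAM repressor complex, fell from 126 copies to 55 (-1.16, Fisher's exact test, FDR 9.96e-06). Neither gene has a tag with a run of 8 A, and both stayed called after the tag-end correction, at -0.69 and -0.85. With edgeR's exact test at an assumed coefficient of variation of 0.1, Ccnh was not called (FDR 0.0552) and Lin37 was (FDR 0.0136), and at 0.2 neither was called. Without site 1, Ccnh was not called (Fisher's exact test, FDR 0.294), and Lin37 had no copies left in the RNAi library. Their copies lay mostly on the site 1 tag, with 293 and 167 copies for Ccnh and 121 and 55 for Lin37:
Ccnh site 1: CATGtctgacattttactttt
Lin37 site 1: CATGcaacgctggaaacgcat

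The 6 genes of that list with the most copies beyond these were not called. The chromatin protein Rbbp4, which binds the retinoblastoma protein, had 1587 control copies and 1323 RNAi copies (-0.23). Rbbp4 passed the FDR (0.0022, Fisher's exact test) and fell short of the fold. The transcription factor Mycn had 1073 and 1038 (-0.01), and Skp1, a subunit of the SCF ubiquitin ligase, had 1076 and 967 (-0.12). Cks1b, a kinase subunit, had 613 and 621 (0.05), and Cdc37, the chaperone partner of CDK4, had 426 and 383 (-0.12). The INK4 inhibitor Cdkn2d had 358 and 257 (-0.44), past the FDR (0.00456, Fisher's exact test) and short of the fold.

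Downstream of E2F, 16 of 18 S-phase genes were listed, none was called higher and 1 was called lower, a share near the 5.97% of all genes called lower. The median log2 ratio was -0.27. Pcna, the sliding clamp of DNA replication, fell from 719 copies to 451 (-0.64, Fisher's exact test, FDR 4.03e-11), at -0.63 after the tag-end correction. It was not called with TMM or DESeq2 factors, which leave its ratio short of the fold, or with edgeR's exact test at an assumed coefficient of variation of 0.1 (FDR 0.122). In this list 14 genes were lower and 2 higher in the RNAi library, where 5642 of all 9894 genes were lower. Of the p53 pathway genes, to which Cdkn1a also belongs, 9 of 12 were listed and 1 was called higher, where 2.96% of all genes were. This was Phlda3, a repressor of Akt signalling that the study had named from these libraries, which rose from 85 copies to 135 (0.70, Fisher's exact test, FDR 0.00281; 0.60 after the tag-end correction), and which was not called at an assumed coefficient of variation of 0.1 (edgeR's exact test, FDR 0.175) or without site 1 (Fisher's exact test, FDR 0.365). Trp53 itself was not listed. Of the 9 genes, 7 were higher, where 4252 of all 9894 genes were, and the median was 0.25.

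**Figure D5:**
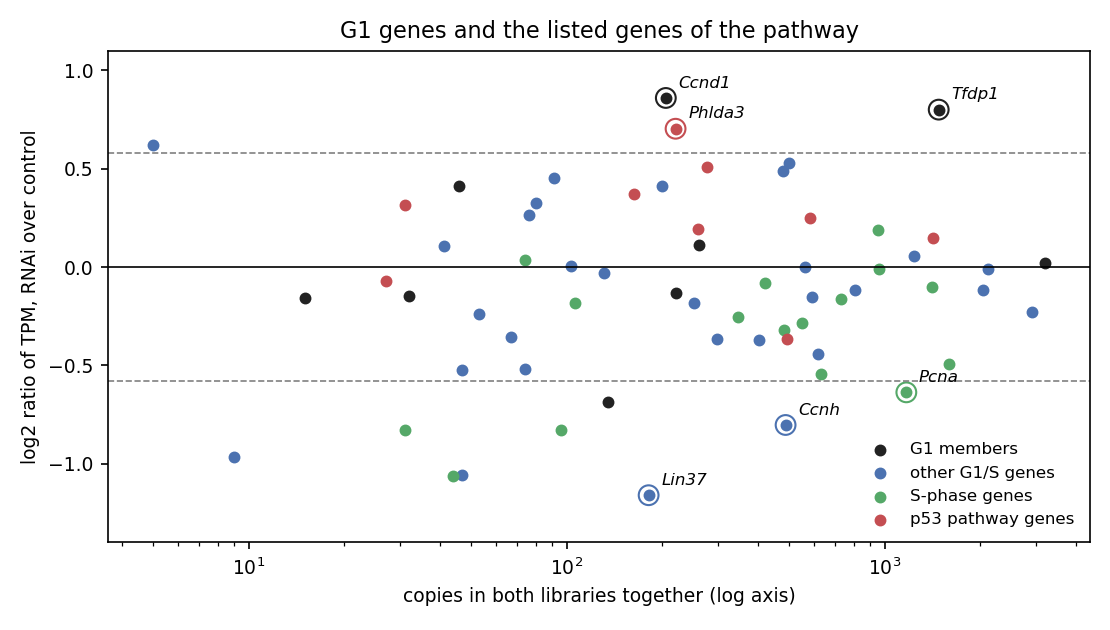
Log2 ratio (RNAi over control) against copies in the libraries together (log axis) for the G1 members (black), other G1/S genes (blue), S-phase genes (green) and p53 pathway genes (red) with copies in each library; rings mark called genes and dashed lines the fold threshold of 0.58. Rings lie on Ccnd1, Tfdp1 and Phlda3 above the line at 0 and on Ccnh, Lin37 and Pcna below it.

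Markers of the cells that such a culture can hold gave 1 call. All 8 neuron markers were listed, with a summed level of 3948 TPM in the control library and 3597 TPM in the RNAi library. Of these, 1 was called lower, Map2, with 24 and 8 copies (-1.55, Fisher's exact test, FDR 0.0461), where 5.97% of all genes were called lower. The study had named Map2 from these libraries, and no Map2 tag reached 20 copies. Without tags ending in 5 or more A, Map2 was not called (Fisher's exact test, FDR 0.051). The sum holds Gap43, which had 788 and 1072 TPM, with 68.1% and 79.2% of its copies on tags ending in 8 or more A and a log2 ratio of -0.17 without them. Tubb3 (454 and 323 TPM, -0.49), Stmn2 (2210 and 1719 TPM, -0.36) and Nefm (90.1 and 63.9 TPM, -0.50) were lower in the RNAi library and have no such tags. These genes passed the FDR of Fisher's exact test (2.3e-14, 3.06e-38 and 0.0028) and fell short of the fold. Dcx (1337 and 1365 copies, 0.07, -0.04 to 0.18) and Rbfox3 (8 and 8 copies, 0.04) were not lower. With all tags, 5 of the 8 neuron markers were lower and 3 higher. Cortical progenitor markers, of which 8 of 9 were listed and Eomes was not, summed to 1093 and 1370 TPM. Vim accounted for the higher sum (2674 and 3724 copies, 0.51), past the FDR (1.63e-47, Fisher's exact test) and short of the fold. The other 7, Sox2 among them (320 and 260 copies, -0.26), were lower. Of those, Nes alone passed the FDR (181 and 125 copies, -0.50, Fisher's exact test, FDR 0.0336), also short of the fold. No progenitor marker was called. Fibroblast and meningeal markers (5 of 5 listed) summed to 546 and 523 TPM, and astrocyte markers (4 of 5, Aqp4 not listed) to 126 and 145 TPM. Microglial (4 of 6), oligodendrocyte (5 of 5) and endothelial markers (1 of 5) summed to 20.9 TPM or less in each library. The part of cell composition in the values of the G1 genes was not tested.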

How the data were processed

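Total RNA from 1 control and 1 RNAi culture was extracted with Trizol and sequenced as digital gene expression tags. The deposited tables give, per gene, a raw count (the copies of all its tags added up) and a value the authors call TPM, which is the CPM of tags over all clean tags. The labels name the genome build rn4. The program that matched tags to genes is not given in the sources used here. Each tag stood under 1 gene, and tags under 2 copies were absent. Positions in the genome are not given here, because no rn4 annotation was used.

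Symbols came from a table of rat RefSeq genes (9337 of 9894 genes). Copies of each gene were tested against all other copies on genes with Fisher's exact test in SciPy 1.17.1 and adjusted by Benjamini-Hochberg over 9894 genes, at an FDR of 0.05 and a log2 ratio of 0.58, the thresholds of the study. Intervals are exact (Clopper-Pearson, 95%). Tag-end medians were estimated over tags with at least 20 copies, with 0.5 copies added, on some genes and removed from the tags of the rest. The class of a tag was its last 2 bases or, for runs of 3 or more A, the run length. The members and the gene lists were chosen with earlier results of these data known. The named genes are all members, every called gene of the lists and the 6 further G1/S genes with the most copies. The test was checked on simulated libraries that hold counting error only, so the check does not cover the spread between cultures. Alternatives used edgeR 4.0.16 and DESeq2 1.42.0 factors (TMM 1.02 and 0.976, size factors 1.04 and 0.959), other totals, error models, filters and thresholds, with Python 3.11.15, NumPy 2.4.6, Matplotlib 3.10.9 and R 4.3.3.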

Additional observations from a re-analysis of the deposited data

How the results depend on the processing

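No paired analysis was possible because each group had 1 library. The depth limits Ccnd2, Ccnd3 and Cdk6, and no alternative adds the spread between cultures, which these libraries do not hold. The 17 alternatives comprised 14 planned ones and 3 added after seeing the data (no tags ending in 5 or more A, no site 1 tags, site 1 tags only). The cause of a changed value was not tested beyond what each alternative leaves out.

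Members called higher went from 2 to 1 (Tfdp1) with an assumed biological coefficient of variation (BCV) of 0.1. The number was 0 at a BCV of 0.2 or 0.4, with the tag-end correction, at a log2 threshold of 1, without tags ending in 8 or 5 or more A, and without site 1. Rb1 made the members called lower 1 instead of 0 with all clean tags as totals, with a minimum of 10 copies, and without site 1. The sign turned for Ccnd1 without tags ending in 8 or 5 or more A or without site 1 (-0.11), and for the difference between Ccnd1 and Ccnd3 without tags ending in 8 or more A (-0.52). It turned for Ccnd2 (0.12) and Cdk4 (-0.061) with the tag-end correction, for Cdk4 (-0.39) and Cdkn1a (-0.72) without site 1, and for Cdkn1b (0.34) and Rb1 (0.27) at site 1 only.

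Over all genes, 293 were called higher and 591 lower. With TMM factors these were 398 and 459, and with DESeq2's size factors 382 and 475, so the excess of lower genes depends on the scaling. With a BCV of 0.1, 0.2 or 0.4 these were 114, 15 and 0 higher and 170, 2 and 0 lower. With the tag-end correction they were 179 and 376, at a log2 threshold of 1 they were 146 and 262, at an FDR of 0.001 they were 163 and 257, and without site 1 they were 84 and 281. Without tags ending in 5 or more A, 195 were higher.

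Other G1/S genes called higher went from 0 to 2 with TMM factors and to 1 with DESeq2's size factors, with the tag-end correction, without site 1 and at site 1 only. Those called lower went from 2 to 1 (Lin37) with a BCV of 0.1 or a log2 threshold of 1, to 0 with a BCV of 0.2 or 0.4, and to 4 at site 1 only. S-phase genes called lower went from 1 to 2 with all clean tags as totals or a minimum of 10 copies, to 3 at site 1 only, and to 0 with TMM or DESeq2 factors, any of the BCVs and a log2 threshold of 1. The p53 pathway genes called higher went from 1 to 2 with TMM or DESeq2 factors and at site 1 only, and to 0 with any of the BCVs, a log2 threshold of 1, an FDR of 0.001, and without site 1.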
